A study of Mus musculus with 2 samples.

Results

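The 3 genes of complement C1q (C1qa, C1qb and C1qc) and 3 genes that mark resident liver macrophages (Clec4f, Cd5l and Vsig4) were described in single-cell RNA sequencing (scRNA-seq) of mouse primary hepatocytes. They were chosen by name, as the rows of these 6 genes in the deposited list of marker genes of all cells, which held 1755 genes in 12 cell clusters. Both groups were wild type BALB/c mice given intraperitoneal injections once a day for 5 days, with recombinant IL-33 (rIL-33, 0.5 µg) in one group and phosphate-buffered saline (PBS) in the other. Per the study's methods the mice were fasted before sampling, hepatocytes were isolated from animals aged 8 to 10 weeks by enzymatic perfusion, and cells were not sorted, so that non-parenchymal cells could remain. Each group gave 1 droplet-based library. The number of animals behind a library is not given in the sources used here. The deposited values pool both libraries, so that no value could be given for PBS or rIL-33 alone, and there was no replicate, no test and no error for any value below. The depth of the libraries is unknown.

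Kupffer cells are the macrophages that live in the sinusoids of the liver, where they take up particles, dying cells and aged red cells from portal blood. C1q is the recognition part of the first complement component: it binds immune complexes and cell debris, and activates the proteases C1r and C1s to start the classical pathway. Unlike most complement proteins, which hepatocytes secrete, C1q is made mainly by macrophages and related cells, and its A, B and C chains assemble into 1 molecule. Clec4f is a C-type lectin used to define Kupffer cells in mice. Cd5l, also called AIM, is a protein secreted by macrophages. Vsig4, also called CRIg, is a receptor for fragments of complement C3 with which Kupffer cells capture opsonised particles from the blood.

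By the GENCODE M21 annotation (GRCm38, the build the authors used under its other name, mm10), the 3 C1q genes lay side by side on the minus strand of chromosome 4. C1qb spanned chr4:136880129-136886187, C1qc chr4:136889804-136893065 and C1qa chr4:136895917-136898803, each with 3 exons. C1qb and C1qc were 3616 bases apart and C1qc and C1qa 2851 bases apart, and the whole stretch of 18675 bases held these 3 genes and no other. Clec4f (chr6:83644542-83656187, minus strand, 7 exons), Cd5l (chr3:87357881-87371073, plus strand, 6 exons) and Vsig4 (chrX:96247203-96293438, minus strand, 7 exons) lay on other chromosomes. None of the 6 genes overlapped another gene of this annotation. The reads behind the values were not examined.

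**Figure D1:**
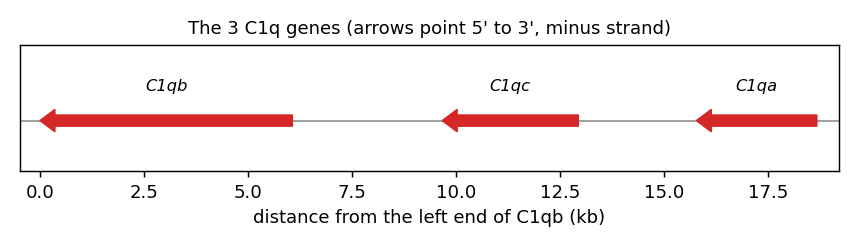
Map of the 3 C1q genes on chromosome 4, with distance from the left end of C1qb in kb on the horizontal axis and each gene drawn to scale as an arrow from its start to its end. The 3 genes follow each other on the minus strand, separated by gaps of 3616 and 2851 bases.

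The 250 bases upstream of the RefSeq start site (GRCm38.p6) are shown for C1qb, Cd5l and Vsig4, since these windows lay outside annotated transcripts and place a complement gene beside 2 Kupffer identity genes. RefSeq windows were matched for 5 of the 6 genes. Each is written 5′ to 3′ on the strand of its gene, and capitals mark matches on either strand to TGCTGA, the core of the site bound by MAF, or to GAGGAA, a core bound by PU.1. Both factors are known regulators in macrophages. The letters were chosen after the sequences had been seen.
C1qb, chr4:136886201-136886450, minus strand: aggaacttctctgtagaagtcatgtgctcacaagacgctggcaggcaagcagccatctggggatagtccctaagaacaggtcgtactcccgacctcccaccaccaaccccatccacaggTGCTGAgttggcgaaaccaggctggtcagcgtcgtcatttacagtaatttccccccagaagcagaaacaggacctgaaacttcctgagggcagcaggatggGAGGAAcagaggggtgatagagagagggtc
Cd5l, chr3:87357631-87357880, plus strand: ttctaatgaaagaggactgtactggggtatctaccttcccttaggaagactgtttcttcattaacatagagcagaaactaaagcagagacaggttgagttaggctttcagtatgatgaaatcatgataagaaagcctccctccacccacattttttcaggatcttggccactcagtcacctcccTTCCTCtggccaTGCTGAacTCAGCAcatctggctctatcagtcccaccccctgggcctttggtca
Vsig4, chrX:96293439-96293688, minus strand: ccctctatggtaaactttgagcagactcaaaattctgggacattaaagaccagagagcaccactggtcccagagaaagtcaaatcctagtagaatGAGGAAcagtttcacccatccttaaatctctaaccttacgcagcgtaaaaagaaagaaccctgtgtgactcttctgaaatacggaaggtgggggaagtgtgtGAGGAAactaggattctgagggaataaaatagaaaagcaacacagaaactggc
The PU.1 letters occurred in 3 of the 3 windows and the MAF letters in 2 of 3. Among 32851 RefSeq promoter windows, 23.3% held the PU.1 letters and 16.1% the MAF letters, so such matches were common and are given as a description of the sequence.

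The values are shares of cells. The deposited table lists marker genes by cluster and gives, for each, the percentage of cells with a nonzero value (here called positive cells) inside the cluster and among all cells outside it. All 6 genes were listed for the cluster that the authors named Kupffer cells and for none of the other 11 clusters. A gene that is not listed for a cluster has no value there, which does not show that it was absent from those cells. C1qa was positive in 95.4% of the cells of this cluster and C1qc in 92.4%. Clec4f (89.1%) and Cd5l (88.7%) lay close below, followed by Vsig4 (81.1%) and C1qb (75.5%). Outside the cluster the shares ran from 17.1% for C1qb to 28.2% for C1qc, so that every member was also positive in a sizeable share of the remaining cells. Being listed for this cluster was common, as 499 of the 1755 genes (28.4%) were, whereas being listed for it alone applied to 93 of the 499 (18.6%). The clusters were built from the same cells and the genes were named with such results known, so nothing is read from these counts about the 6 genes.

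**Figure D2:**
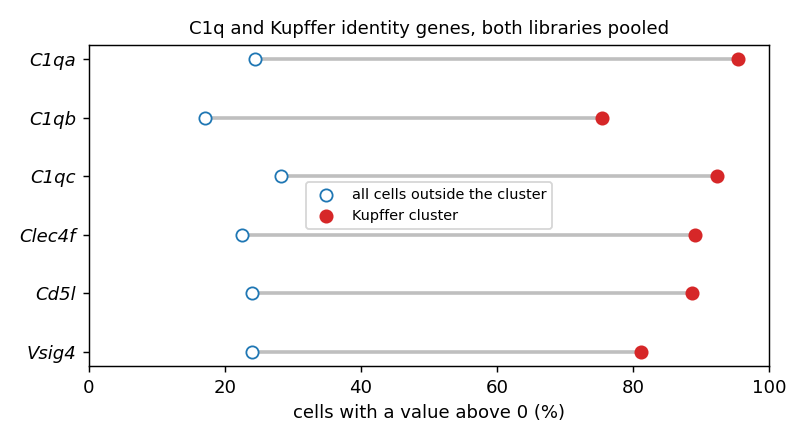
Share of cells with a value above 0 (percent, horizontal axis) for the 6 genes, inside the Kupffer cluster and among all cells outside it, with both libraries pooled and no error available. Shares inside lie between 75.5% and 95.4% and shares outside between 17.1% and 28.2%, with no overlap.

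Among the C1q genes, whose products are used in equal numbers, the 3 shares were unequal. C1qb was the lowest of the 3 both inside (75.5%) and outside (17.1%) the cluster. C1qa had the higher share inside (95.4%, against 92.4% for C1qc), whereas C1qc had the higher share outside (28.2%, against 24.4%). The difference between inside and outside was therefore 71.0 percentage points for C1qa, 64.2 for C1qc and 58.4 for C1qb. The identity genes spanned a similar range, with 66.6 points for Clec4f, 64.7 for Cd5l and 57.1 for Vsig4. Cd5l and Vsig4 had the same outside share (24.0%), and Clec4f stood 1.5 points lower at 22.5%. The neighbours Clec4f and Cd5l differed inside by 0.4 points. With no replicate, whether any of these gaps exceeds the spread between animals could not be assessed. A share of positive cells also depends on the number of transcripts of a gene per cell and on depth, so the order is not one of transcript levels.

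Few of the 499 genes listed for the Kupffer cluster were positive in as many of its cells. Only Ctsb (97.7%) and Psap (96.0%), which encode the lysosomal protease cathepsin B and the saposin precursor, had a higher share inside than C1qa. Both were also common elsewhere, at 45.7% and 52.9% of the cells outside, and were listed for 3 and 4 clusters. The median over the 6 genes was 88.9% inside and 24.0% outside, beside 39.1% and 22.1% over all 499 genes. The median inside was thus higher for the 6 genes, whereas the median outside was close to that of all genes listed. A difference of 50 points or more was found for 33 of the 499 genes (6.61%) and for 6 of the 6 members. The limit of 50 points lies below the smallest difference of a member (57.1 points for Vsig4). The 6 genes were named with such results known, so comparing them with the other listed genes describes the choice and tests nothing. At the other end, 74 of the 499 genes had a lower share inside the cluster than outside it.

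**Figure D3:**
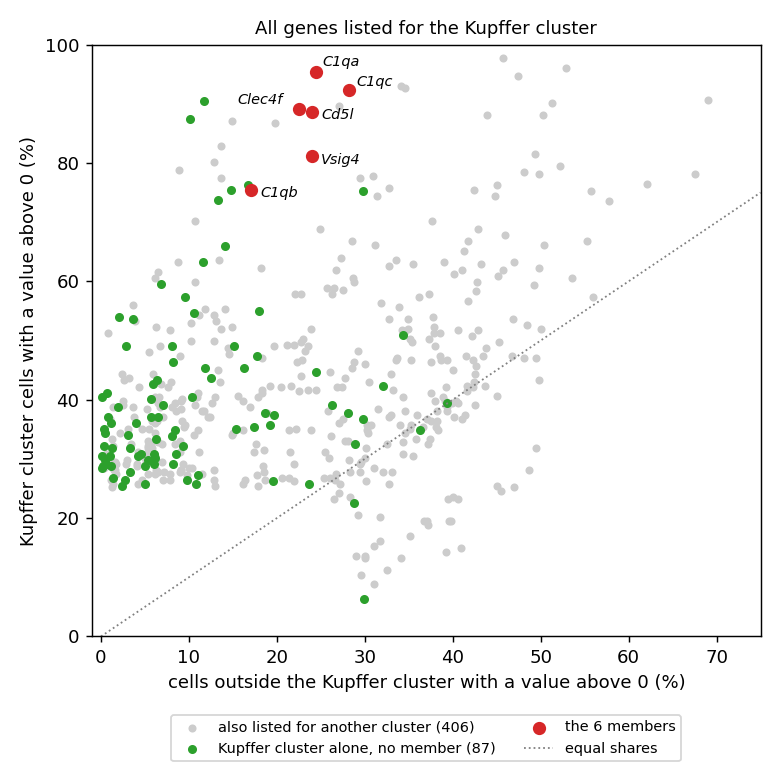
Share of positive cells outside the Kupffer cluster (percent, horizontal axis) against the share inside it (percent, vertical axis) for all 499 genes listed for the cluster, with the 6 members in red, 87 other genes listed for this cluster alone in green and 406 genes also listed for another cluster in grey. The members lie in the upper part, at 75.5% to 95.4% inside and 17.1% to 28.2% outside.

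Among the 87 other genes listed for the Kupffer cluster alone, the median was 36.1% inside and 8.1% outside. Of these 87 genes, 4 reached the lowest inside share of the members and 20 reached their lowest outside share. By contrast, 30 of the 87 had an outside share of 5% or less, and 11 were below 1%. The 6 members were thus among the most widely positive of these genes in the cluster and also among those more widely positive outside. Across the 93 genes listed for this cluster alone, shares inside and outside were weakly related (Spearman's rho 0.375, Pearson's r 0.310). These genes share the same cells, libraries and depth and are not independent, and the relation is a description.

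By the difference between both shares, C1qa ranked 4, Clec4f 9, Cd5l 10, C1qc 11, C1qb 19 and Vsig4 21 of 499. Macrophage and myeloid genes were among the other large differences. Vcam1, an adhesion molecule that Kupffer cells carry, was positive in 87.4% inside and 10.1% outside, and the lysosomal protease gene Ctss in 87.1% and 14.9%. Zeb2 (78.8% and 8.9%), a transcription factor, Marcks (82.8% and 13.7%), the mannose receptor gene Mrc1 (80.1% and 12.8%) and Laptm5 (86.8% and 19.8%) also ranked among the first 10. Each of these 6 genes had a lower outside share than C1qa, Clec4f and Cd5l, the 3 members among the first 10. The rank depended on the measure used. By the ratio of inside to outside shares, the members ranked between 145 (C1qb) and 188 (C1qc) of 499, since genes with outside shares near 0 came first.

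Cluster sizes are not given in the table, but genes listed for several clusters fix them, because the inside and outside shares of a gene must average to the same share over all cells. Solved over 1115 genes, the Kupffer cluster held 2.68% of all cells and the 5 hepatocyte clusters 90.0%, and all fitted sizes summed to 100.1%. Hepatocytes therefore made up 92.3% of the cells outside the Kupffer cluster. With these sizes, 26.3% of all cells were positive for C1qa, 29.9% for C1qc, 25.7% for Cd5l, 25.5% for Vsig4, 24.3% for Clec4f and 18.7% for C1qb. Only 8.27% (C1qc) to 10.8% (C1qb) of the positive cells lay in the Kupffer cluster. For C1qa this was 9.71%, and the other 90.3% of its positive cells lay outside. Even if every cell of the 6 remaining non-hepatocyte clusters had been positive, 10.2% (C1qb) to 22.2% (C1qc) of the hepatocytes would have been positive too.

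**Figure D4:**
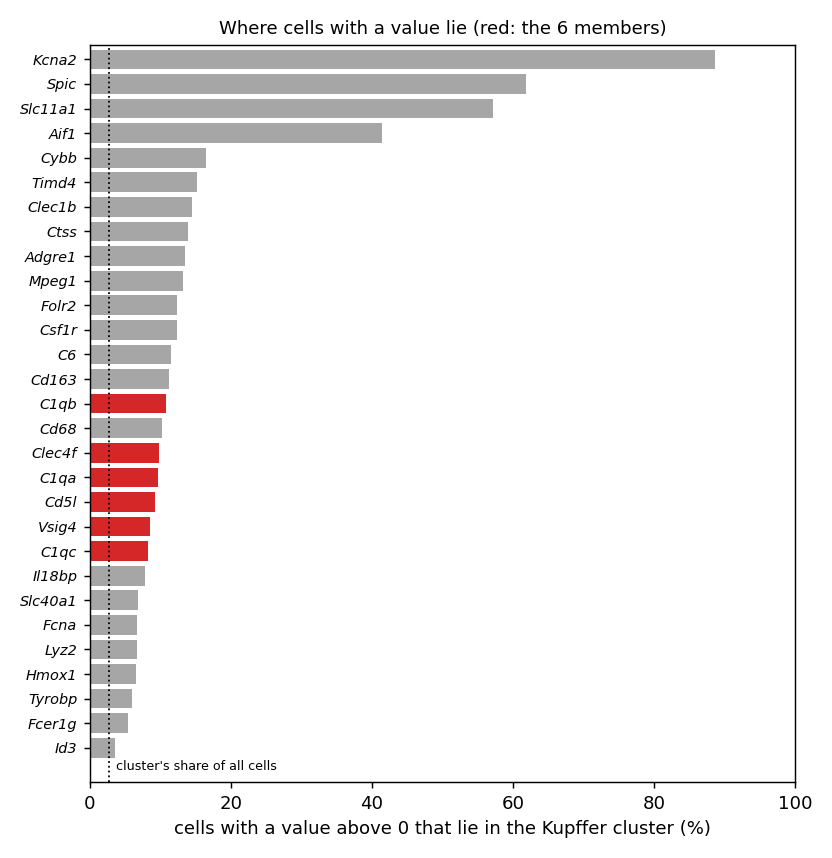
Percentage of the positive cells of a gene that lay in the Kupffer cluster (horizontal axis), for the 6 members (red bars) and 23 other macrophage genes (grey bars), computed from the deposited shares and the solved cluster size. The members lie between 8.27% and 10.8%, whereas Kcna2, Spic and Slc11a1 exceed 50%, and the dotted line marks the share of all cells that the cluster held (2.68%).

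These outside shares could not be read as expression by hepatocytes. In droplet data, free RNA gives transcripts to cells that do not make them, and some markers of other cell types were also widely positive outside their own clusters. Of 22 markers of neutrophils, B cells, T and NK cells, stellate cells and red blood cells listed for their own cluster, 6 had an outside share of at least 17.1%, the lowest of the members, and 9 were below 5%. The median outside share was 24.2% for the neutrophil markers, 13% for red blood cells, 9.60% for stellate cells, 3.35% for T and NK cells and 2.50% for B cells. The neutrophil genes S100a8 and S100a9 were positive in 46.9% and 47.5% of the cells outside the neutrophil cluster, and the immunoglobulin gene Igkc in 68.1% of those outside the B cell cluster. By contrast, Cxcr2 was positive in 1.3% of the cells outside the neutrophil cluster, Ms4a1 in 0.1% of those outside the B cell cluster and Col3a1 in 1.0% outside the cluster of stellate cells and fibroblasts. In addition, the shares in the table of all cells did not match those in a second deposited table, which compared the hepatocyte clusters with each other. Of 825 pairs of a gene and a hepatocyte cluster in both tables, 115 had the same cluster share within 0.1 points, 695 had a higher share in the table of all cells and 15 a lower one, with a median gap of 10.5 points. For 528 of 576 genes in both tables, the share over all cells would have required more than 100% of the non-hepatocytes to be positive. Shares of both tables were therefore not treated as 1 quantity, and the part of free RNA or of the authors' processing in the outside shares of the 6 genes was not tested. None of the 6 members was listed in the hepatocyte table, which holds 1609 genes in 5 clusters, so the 5 hepatocyte clusters gave no contrast for them.

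The name of the cluster was checked against other markers. Of 6 Kupffer cell markers that are not members (Timd4, Marco, Folr2, Adgre1, Csf1r and Cd68), 5 were listed for it, and Marco was not in the table. Of 54 markers of 8 other cell types (endothelial, neutrophil, B, T and NK, stellate, dendritic, hepatocyte and erythroid), 3 were listed, all endothelial. Of all genes in the table, 28.4% were listed for this cluster. Among the 9 endothelial genes, 8 were in the table and 3 were listed for this cluster. The check was thus not clean for endothelial genes. Only 1 of 9 dendritic, 2 of 6 erythroid and 4 of 6 stellate genes were listed for any cluster, so the check was weak for these types. The 3 endothelial genes listed were Cdh5 (26.5% inside and 4.7% outside), Pecam1 (30.1% and 5.0%) and Fcgr2b (26.2% and 22.0%). The cluster that the authors named endothelial cells did not list Cdh5 or Pecam1. All 3 endothelial genes had higher shares in the cluster of stellate cells and fibroblasts, with 73.7% for Cdh5, 73.7% for Pecam1 and 78.9% for Fcgr2b. Their part in the values of the 6 genes was not tested. Of 11 genes of monocytes and monocyte-derived macrophages, 5 were listed for any cluster and 1 for this one, Cx3cr1, the fractalkine receptor (59.6% and 6.8%).

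Other identity genes of Kupffer cells were mostly listed too, with shares spread more widely. Of 15 such genes, 13 were in the table, and all 13 were listed for the Kupffer cluster, beside 28.4% of all genes. Of these 13, 8 were listed for it alone, beside 18.6% of all genes listed for it. Slc40a1, the iron exporter ferroportin, had the highest share inside (92.7%) and 34.6% outside. The haemoglobin scavenger receptor gene Cd163 was positive in 76.2% inside and 16.7% outside, Fcna, which encodes ficolin A, in 77.5% and 29.5%, and the haem oxygenase gene Hmox1 in 75.2% and 29.8%. By contrast, the phosphatidylserine receptor gene Timd4 was positive in 37.1% and 5.7%, and the folate receptor gene Folr2 in 30.8% and 6.0%. Spic, a transcription factor of iron-recycling macrophages, reached 41.1% inside with 0.7% outside, Slc11a1, a metal transporter of phagosomes, 29.1% with 0.6%, and the potassium channel gene Kcna2 28.5% with 0.1%. Of the positive cells of Kcna2, 88.7% lay in the Kupffer cluster, with 61.8% for Spic and 57.2% for Slc11a1. Rounding of the shares alone allowed 83.9% to 94.0% for Kcna2, 60.1% to 63.5% for Spic and 55.2% to 59.3% for Slc11a1. The genes with the widest cover of the cluster were thus different from those whose positive cells were concentrated in it. The remaining listed genes were C6, a component of the terminal complement pathway (63.6% and 13.4%), Il18bp, which encodes a binding protein of interleukin-18 (55.0% and 18.0%), Id3, a transcriptional regulator (51.3% and 37.9%), and the lectin gene Clec1b (33.1% and 5.4%). In the small cluster of stellate cells and fibroblasts, which also listed them, C6 (73.7%), Id3 (84.2%), Clec1b (63.2%) and Fcna (78.9%) had higher shares. Outside the cluster, Slc40a1, Id3, Hmox1 and Fcna exceeded every member. The nuclear receptor gene Nr1h3 was not in the table.

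Genes shared by macrophages in general gave a similar picture. Of 12 such genes, 10 were in the table, and all 10 were listed for the cluster, beside 28.4% of all genes. Of these 10, 5 were listed for it alone, beside 18.6% of all genes listed for it. Ctss is given above. The colony-stimulating factor receptor gene Csf1r was positive in 75.5% inside, the same share as C1qb, and in 14.8% outside. Mpeg1 (73.8% and 13.3%) encodes a pore-forming protein of phagosomes, and Cybb (63.2% and 8.8%) the large subunit of the phagocyte oxidase. Adgre1, which encodes the F4/80 antigen, was positive in 46.4% and 8.2%, and Cd68 in 33.8% and 8.1%. The adaptor genes Fcer1g (59.9% and 28.8%) and Tyrobp (58.9% and 25.7%) and the lysozyme gene Lyz2 (57.9% and 22.1%) had outside shares in or near the range of the members. In the neutrophil cluster, which also listed them, shares were higher, with 98.3% for Tyrobp, 93.7% for Fcer1g and 80.2% for Lyz2. Aif1 combined 54.0% inside with 2.1% outside, and 41.4% of its positive cells lay in the cluster. Of the 23 genes listed from both lists, 15 had a smaller outside share than every member, and 18 a smaller share inside. For 14 of the 23, more of the positive cells lay in the Kupffer cluster than for any member, and for 8 fewer.

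**Figure D5:**
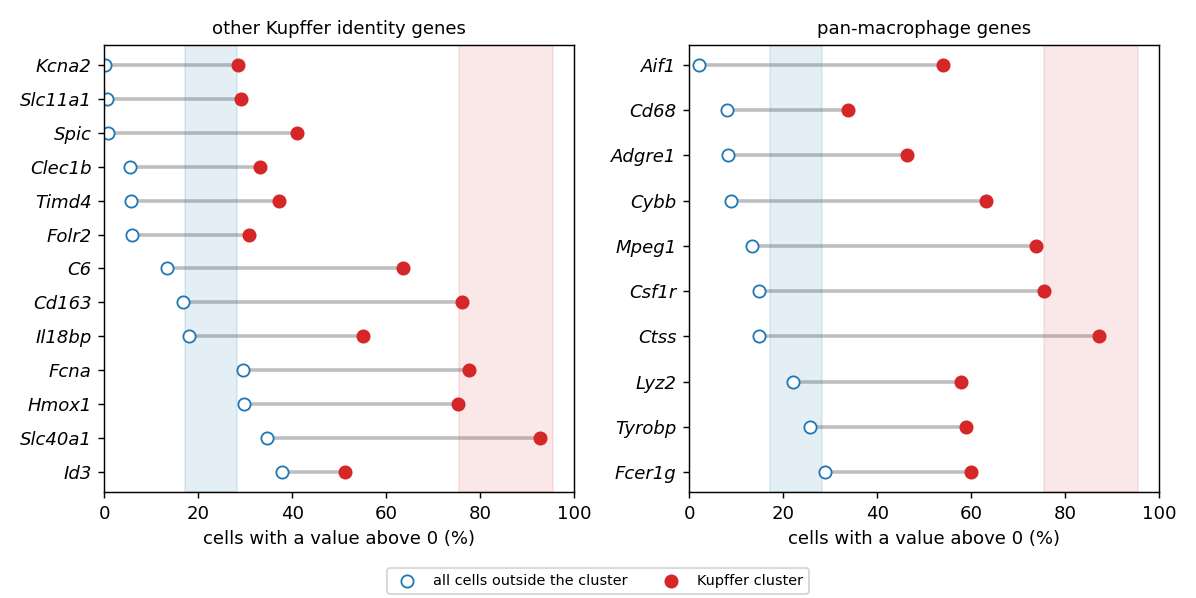
Share of cells with a value above 0 (percent, horizontal axis) inside the Kupffer cluster and outside it for 13 other Kupffer identity genes (left) and 10 genes of macrophages in general (right), with bands showing the range of the 6 members inside (red) and outside (blue). Of the 23 genes, 15 lie left of the blue band and 18 left of the red band.

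For each member, the most similar genes were those with the smallest distance in the plane of both shares, over the 499 genes listed for the cluster. C1qa was nearest to C1qc (4.84 points), followed by Maf (6.31), a transcription factor, and Clec4f (6.58). C1qc was nearest to Maf (2.92), then to C1qa (4.84) and Cd5l (5.60). C1qb was not near the other C1q genes: its nearest genes were Cd163 (0.806), Csf1r (2.30) and Sdc3 (3.94), a syndecan. Clec4f and Cd5l were each nearest to the other (1.55), followed by Laptm5 (3.55) and Maf (4.64) for Clec4f and by Maf (3.26) and Laptm5 (4.61) for Cd5l. Vsig4 was nearest to Fcna (6.57), then to Laptm5 (7.08) and Cd5l (7.60). Each likeness rests on 1 cluster and 2 shares.

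The proteases and substrates that act after C1q were listed for other clusters. Of 16 other genes of the classical and lectin pathways, 11 were in the table. Of these 11, 1 was listed for the Kupffer cluster, Fcna of the lectin pathway, beside 28.4% of all genes in the table. The cluster called Hepatocyte5 listed 10 of the 11, and 24.7% of all genes in the table. Hepatocyte4 listed 9 of the 11, and 25.2% of all genes. C1ra, which encodes the protease C1r activated by C1q, was positive in 64.9% of the Hepatocyte5 cells and in 27.5% of all other cells. C1s1, which encodes C1s, was positive in 96.7% of the Hepatocyte5 cells and 64.3% of the Hepatocyte4 cells, beside 33.7% and 28.7% of the cells outside each cluster. C4b, a C4 gene whose product C1s cleaves, reached 100% and 82.0% in the same clusters, beside 49.5% and 43.9% outside, and C2 reached 70.9% and 44.5%, beside 35.5% and 34.4%. In the table of all cells, C3 was positive almost everywhere, with 100% in Hepatocyte5 and 95.2% in the cells outside it. Serping1, the inhibitor of C1r and C1s, was listed for Hepatocyte5 (99.3%), Hepatocyte4 (86.6%) and the cluster of stellate cells and fibroblasts (100%). By the solved sizes, Hepatocyte5 held 1.34% of all cells, Hepatocyte4 16.3% and the cluster of stellate cells and fibroblasts 0.171%. Shares in the smaller clusters rest on fewer cells. In the table of the hepatocyte clusters alone, 13 of the 16 genes were present. All 13 were listed for Hepatocyte5, as were 54.3% of all genes of that table. The shares given there for C1ra (51.7%) and C1s1 (75.5%) were lower than in the table of all cells. Shares outside Hepatocyte5 were lower there too, with 79.0% for C3 and 31.8% for C4b. The genes of C1q and of C1r and C1s were thus listed for different clusters of the same preparation. C1ra, C1s1 and C4b have near-identical copies in the mouse genome, between which reads can be split, and their values are uncertain to that extent.

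Receptors of complement and of C1q were partly listed for the Kupffer cluster. Of 13 complement receptors and regulators, 7 were in the table and 3 were listed for this cluster. Beside this, 28.4% of all genes in the table were listed for it. Cfp, which encodes properdin, a stabiliser of the alternative pathway convertase, was positive in 57.3% inside and 9.5% outside. C3ar1, the receptor of the C3a fragment, was positive in 30.5% and 4.2%, and Itgb2, the beta chain of complement receptors 3 and 4, in 30.5% and 6.1%. Itgb2 was also listed, with higher shares, for the clusters of neutrophils (43.5%), T cells (41.9%) and B cells (35.2%). Vsig4, at 81.1%, therefore had the highest inside share of the complement receptors listed. Of 7 proteins named as binding C1q, 3 had a gene in the table, and all 3 were listed for the Kupffer cluster. They were the endocytic receptor gene Lrp1 (66.9% and 41.7%), Calr, which encodes calreticulin (50.7% and 42.2%), and the inhibitory receptor gene Lair1 (37.1% and 6.5%). The difference for Calr was 8.5 points, against 58.4 points for C1qb, the smallest among the C1q genes. Lrp1 and Calr were each positive in 98.0% of the Hepatocyte5 cells, a higher share than in the Kupffer cluster.

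Lists of genes for further functions and receptor families of macrophages were followed in the same way. The counts below stand beside the 28.4% of all genes in the table that were listed for the Kupffer cluster. The table held 5 genes for the uptake of dying cells, 6 scavenger receptor genes and 8 other C-type lectin genes. It also held 4 target genes of the nuclear receptor LXR and 5 MHC class II genes. The lists were chosen with earlier results known, so nothing is read from the counts. For the uptake of dying cells, 4 of 9 genes were listed: the receptor kinase genes Mertk (65.9% and 14.1%) and Axl (53.3% and 13.1%), Cd300a (51.7% and 7.8%) and Timd4, given above. Of 8 scavenger receptor genes 4 were listed, among them Msr1 with 51.3% inside and 0.8% outside, whereas Scarb1 had nearly equal shares (42.1% and 42.3%). Msr1 (63.2%) and Axl (73.7%) had higher shares in the cluster of stellate cells and fibroblasts, which also listed them. Besides Clec4f, 7 of 13 C-type lectin genes were listed, and of these only Mrc1 was positive in at least 50% of the cluster. The others were Clec1b, given above, Clec4a1 (43.7% and 12.5%), Clec4a3 (42.7% and 5.9%), Clec12a (37.1% and 7.0%), Clec4n (28.8% and 0.2%) and Clec4a2 (27.5% and 1.7%). Of 7 target genes of LXR, a nuclear receptor that induces Cd5l, 4 were listed: Abca1 (66.2% and 31.2%), Smpdl3a (55.6% and 33.9%), Abcg1 (43.0% and 13.5%) and Mylip (39.1% and 10.7%). Each of these 4 had a smaller share inside than Cd5l (88.7%) and was also listed for at least 1 other cluster. Of 7 MHC class II genes 5 were listed: the invariant chain gene Cd74 (66.9% and 28.5%), H2-Aa (38.7% and 16.9%), H2-DMa (34.4% and 15.0%), H2-Ab1 (32.5% and 8.4%) and H2-Eb1 (29.1% and 9.3%). Each of these 5 was also listed for the B cell cluster, with a higher share inside it than in the Kupffer cluster. There Cd74 was positive in 89.9%, H2-Ab1 in 69.6%, H2-Aa in 68.0%, H2-Eb1 in 60.3% and H2-DMa in 40.1%. Of 9 dendritic cell genes 1 was listed for any cluster and 0 for the Kupffer cluster.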

How the data were processed

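Droplet-based libraries of unsorted primary hepatocytes were made by the authors (1 from mice given PBS, 1 from mice given rIL-33). The authors counted transcripts with Cell Ranger (mm10), filtered, normalised and clustered the cells with Seurat, and listed marker genes per cluster. The deposited fractions, rounded to 3 decimals, give how many cells inside and outside a cluster had a nonzero value according to the authors, with both libraries pooled, and are printed as percentages. Every row of both tables had at least 1 share of 25% or more. The remaining deposited columns hold the authors' fold changes and p-values between clusters and were not used. The authors' filter removed cells with very many genes as potential doublets, and no doublet caller was run here. Depth is unknown, the tables give no cell numbers, and no interval for sampling and no test was computed. Bounds that the rounding of the shares allows were computed for the part of positive cells in the Kupffer cluster.

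The 6 genes and all gene lists were chosen with earlier results of these data known. Named genes were the members, list genes listed for the Kupffer cluster, the 10 largest differences and the 3 nearest genes per member, of which 1 gene is not reported here. Complement genes of hepatocyte clusters, markers of other clusters (S100a8, S100a9, Igkc, Cxcr2, Ms4a1 and Col3a1), Ctsb and Psap fell outside this rule and were chosen after their values were seen. Cluster sizes were solved by least squares from genes listed for at least 2 clusters and tested on simulated data. Alternatives were ratio and odds for ranks, other distances, other rows for the size, the bounds that rounding allows, and stricter limits for lists. Coordinates and exons came from GENCODE M21 and promoter sequences from RefSeq (GRCm38.p6). Python 3.11.15, NumPy 2.4.6, pandas 2.3.3, SciPy 1.17.1 and matplotlib 3.10.9 were used.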

Additional observations from a re-analysis of the deposited data

How the results depend on the processing

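Of the alternatives run, 20 gave a clearly different rank or list count, all given below. The other 67 gave an equal value or one that changed less in proportion. None turned a direction. Smaller changes included other Kupffer identity genes (13 to 11) and LXR targets (4 to 3) with a difference of at least 25 points. With an inside share of at least 50%, they included genes of macrophages in general (10 to 8) and genes for the uptake of dying cells (4 to 3). Ranked by the ratio of inside to outside shares, C1qb stood at 145, Clec4f at 156, C1qa at 160, Cd5l at 171, Vsig4 at 184 and C1qc at 188 of 499, and ranked by the odds ratio C1qa at 16, C1qc at 37, Clec4f at 41, Cd5l at 53, C1qb at 80 and Vsig4 at 86. Counting only genes with an inside share of at least 50%, the list counts fell from 13 to 7 for other Kupffer identity genes, from 7 to 1 for C-type lectins, from 5 to 1 for MHC class II, from 4 to 2 for LXR targets, from 3 to 1 for complement receptors and regulators, and from 3 to 0 for endothelial genes. With a difference of at least 25 points, MHC class II fell from 5 to 1 and endothelial genes from 3 to 1. These limits admit fewer genes by construction. The solved size of the Kupffer cluster was 2.68% with each alternative set of rows. Of the 18 nearest genes, 12 were also nearest on a logit scale and 14 by city-block distance. No paired analysis was possible because each condition had 1 library and the deposited values pool both. What limits every value is the unknown depth, the absence of replicates and the unexplained gap between both tables.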
